A study of Homo sapiens with 6 samples.

Results

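Collagen, laminin and integrin genes were measured in ARPE-19, a cell line established from human retinal pigment epithelium, after a plasmid with GFP and satellite alpha or a plasmid with GFP only had been given. Satellite alpha is the repeat DNA of human centromeres. The rule that picks the members uses gene symbols and no measured value: collagen chains (COL, number, A, number), laminin chains (LAMA, LAMB or LAMC with a number) and integrin subunits (ITGA or ITGB with a number, and ITGAV, ITGAE, ITGAL, ITGAM and ITGAX). These symbols matched 76 of 18132 genes on the array (43 collagens, 10 laminins and 23 integrins), through 217 of 49372 probe sets, a probe set being the group of short probes that together measure a transcript on the array. The 2 groups were 3 GFP arrays, the control, and 3 SATalpha arrays, all from ARPE-19 wells that received 2.5 µg of plasmid. The plasmid is the only difference between the groups that the labels give. The labels name no sort for cells that took up plasmid and do not say whether the wells were separate cultures, so the spread behind each p-value is that among these wells and may be technical. In RNA from whole wells, fewer cells that express a gene and less RNA per cell cannot be told apart.

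Collagens are triple helices of 3 chains and form the scaffold of extracellular matrix, some as fibrils and others as the sheets of basement membranes. Laminins are cross-shaped trimers of an alpha, a beta and a gamma chain and polymerize at the cell side of a basement membrane. Integrins are heterodimers of an alpha and a beta subunit that span the cell membrane and hold cells to collagen, laminin and other matrix proteins. In the eye, the retinal pigment epithelium rests on Bruch's membrane, whose inner layer is the basement membrane of these cells.

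Chains of type IV collagen, the network collagen of basement membranes, are encoded by gene pairs that lie head to head, so the bases between the starts of a pair are upstream of both genes. Those bases are shown because COL4A3, the member with the largest difference among those tested, is one of these 6 chains. The sequences are from RefSeq (GRCh38.p14, plus strand), and capitals mark, on either strand, the GC box with its letters GGGCGG and the CCAAT box, read as those letters. The first is chr13:110307158-110307283, all 126 bases between COL4A1 and COL4A2. The second is chr2:227164489-227164623, all 135 bases between COL4A4 and COL4A3. The third is chrX:108439588-108439837, the 250 bases before the start of COL4A5, out of 379 between COL4A6 and COL4A5.
COL4A1 and COL4A2: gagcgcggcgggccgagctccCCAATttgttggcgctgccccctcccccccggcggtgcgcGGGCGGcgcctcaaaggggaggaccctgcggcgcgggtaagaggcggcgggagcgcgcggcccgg
COL4A4 and COL4A3: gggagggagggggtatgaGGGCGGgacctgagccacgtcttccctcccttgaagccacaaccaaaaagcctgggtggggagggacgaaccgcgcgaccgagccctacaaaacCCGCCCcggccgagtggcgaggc
COL4A6 and COL4A5: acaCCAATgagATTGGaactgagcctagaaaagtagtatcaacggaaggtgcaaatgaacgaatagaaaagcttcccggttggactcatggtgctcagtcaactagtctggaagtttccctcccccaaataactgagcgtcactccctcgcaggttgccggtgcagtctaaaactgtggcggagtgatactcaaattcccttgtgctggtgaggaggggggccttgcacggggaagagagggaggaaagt

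The COL4A1 and COL4A2 stretch held 1 GC box and 1 CCAAT box, and the COL4A4 and COL4A3 stretch held 2 GC boxes and 0 CCAAT boxes. The COL4A6 and COL4A5 stretch held 0 GC boxes and 2 CCAAT boxes. The letters TATAAA were in none of these 3 stretches. RefSeq promoter windows of 300 bases were given for 54 of the 76 members. Of 73 such windows, 57.5% held GGGCGG, 24.7% CCAAT and 12.3% TATAAA, against 15786 (45%), 34.6% and 11.5% of all 35116 windows. A match describes letters and is not a binding site.

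The arrays were alike in scale, with array medians of 5.29 to 5.32 on the log2 scale, and arrays of 1 group correlated at 0.996 to 0.997, arrays of different groups at 0.995 to 0.996. The 3′ minus 5′ signal of the control transcripts, a measure of RNA integrity that matters for long matrix transcripts, was 0.393 ± 0.046 with GFP and 0.393 ± 0.068 with SATalpha for GAPDH (SD, n = 3, two-sided exact permutation p = 1). The ACTB controls gave 2.06 ± 0.07 with GFP against 2.01 ± 0.13 with SATalpha (SD, n = 3; p = 0.6 by the exact permutation test), where 3 against 3 arrays cannot give a p below 0.1. Of 14 retinal pigment epithelium markers with a probe set, 8 lay above the floor of the test, among them MITF, OTX2, KRT8 and KRT18, while the visual cycle and mature pigment epithelium genes RPE65, RLBP1, LRAT and BEST1 lay below it. The summed signal of the 14 markers was 13.33 to 13.39 with GFP and 13.22 to 13.26 with SATalpha (log2). Signals were summed before logs were taken, so the brightest, KRT18, KRT8 and EZR (means of 12.22, 11.48 and 10.96 with GFP), weigh most. KRT18 and KRT8 fell by 0.21 and 0.13 (limma adjusted p = 0.000675 and 0.0266). The other 6 tested markers did not pass, among them EZR (0.10, without overlap), MITF (-0.09) and OTX2 (-0.05). The part of this shift in the results below was not tested.

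Satellite alpha was accompanied by small differences in these genes. Of 38 tested members, COL4A3, ITGAX and COL8A1 rose and none fell (limma adjusted p under 0.05 over 10879 genes, each gene represented by its brightest probe set). At an unadjusted p under 0.05, 6 members were higher and 3 lower, against 1410 higher and 2282 lower of all 10879 tested genes. A test without moderation called 1 member, LAMC1, as lower, and 6.59% of all tested genes. The 3 calls were 7.89% of the tested members, whereas 20.8% of all tested genes were called. By direction, 7.72% of all tested genes were called higher, near the members' share, and 13.0% lower. The median log2 difference was 0.0079 over the members and -0.02 over all tested genes. The median size was 0.06 against 0.09. The groups did not overlap in 10 members (26.3%), 5 higher and 5 lower, and in 37.6% of all tested genes, 14.4% higher and 23.2% lower. Above 0 lay 21 of the 38 members (55.3%) and 42.3% of all tested genes.

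The 95% interval of the difference lay within 1.5-fold either way (0.58 on the log2 scale) for all 38 tested members, and for 97.4% of all tested genes. Within 1.2-fold lay 25 of the 38 (65.8%), against 57.4% of all tested genes. COL4A3 alone among the tested members differed by 1.2-fold or more. Standard errors (SE) ran from 0.04 for ITGB1 to 0.12 for ITGB8, with a median of 0.06 for members as for all tested genes.

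**Figure D1:**
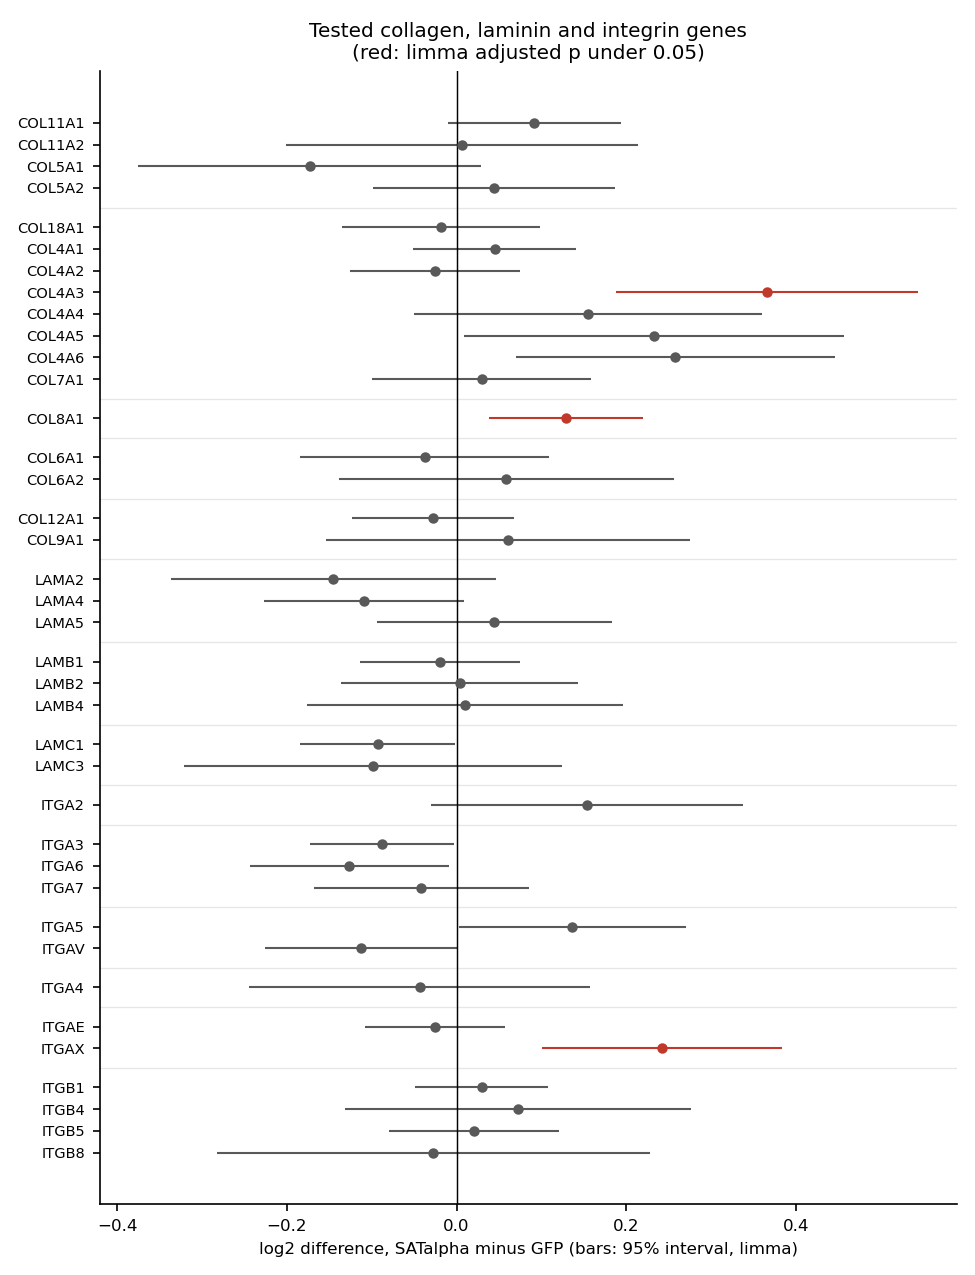
Log2 difference, SATalpha minus GFP, of the 38 tested genes with limma's 95% interval; the blocks from the top are fibrillar, basement membrane, short chain, beaded filament and FACIT collagens, laminin alpha, beta and gamma chains, then integrins by ligand and beta subunits. COL4A3, COL8A1 and ITGAX, in red, passed adjusted p under 0.05, and no interval reached 0.58 in size.

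**Figure D2:**
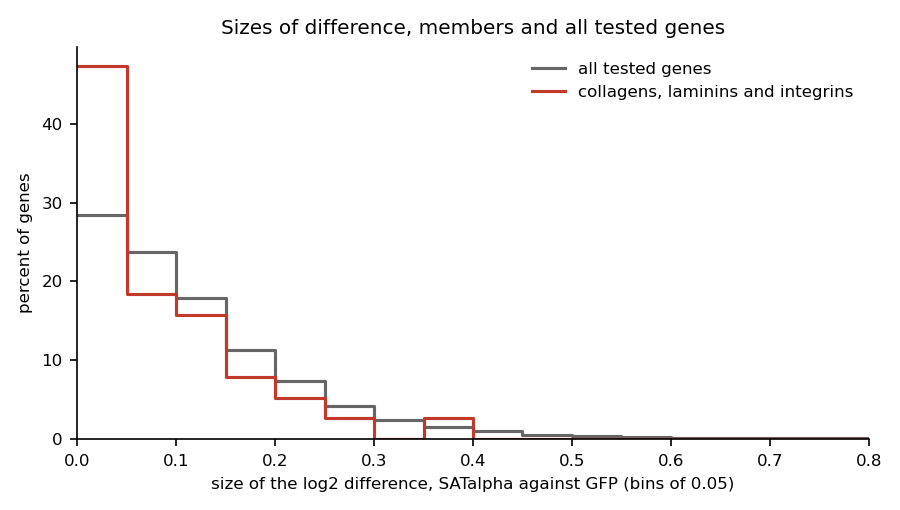
Percent of genes in each bin of 0.05 of the size of the log2 difference, for the 38 tested members and all 10879 tested genes. The members' median size was 0.06 and that of all tested genes 0.09.

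Among the basement membrane collagens, the 4 chains of the less widespread type IV networks lay above 0, of which COL4A3 passed, and the ubiquitous pair COL4A1 and COL4A2 lay near 0. COL4A3, which joins COL4A4 and COL4A5 in the network known from the kidney's filter, was at 5.73, 5.91 and 5.69 with GFP and at 6.17, 6.16 and 6.10 with SATalpha. Each SATalpha array was above each GFP array. It rose by 0.37 (SE 0.08, limma adjusted p = 0.00684), and this call held whichever of the 6 arrays was left out. The test without moderation did not call it (adjusted p = 0.0635, range among its alternatives 0.00124 to 0.0635). In the fit over all probe sets it passed (adjusted p = 0.0152), and there the call was lost without GFP replicate 1 or 3 or SATalpha replicate 1. The other COL4A3 probe set, below the floor, differed by 0.22 (SE 0.11, limma adjusted p = 0.273 over probe sets).

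COL4A4, the partner of COL4A3 across the 135 bases shown above, was at 5.74, 5.52 and 5.67 with GFP and at 5.64, 5.86 and 5.90 with SATalpha. The groups overlapped. Its difference was 0.15 (SE 0.10, 95% interval -0.05 to 0.36, limma adjusted p = 0.276), and its other probe set differed by 0.17. COL4A5, which takes part in both of these networks, was at 5.99, 6.27 and 5.92 with GFP and 6.18, 6.21 and 6.48 with SATalpha, so that GFP replicate 2 lay among the SATalpha values. The difference was 0.23 (SE 0.10, adjusted p = 0.132), and without that array it was 0.34 and passed (adjusted p = 0.0465, range among its alternatives 0.0465 to 0.369). Its other probe set above the floor, with a mean of 6.14, differed by 0.06 (SE 0.08), and the mean of its probe sets by 0.13 (adjusted p = 0.273).

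COL4A6, the chain that lies head to head with COL4A5, was at 5.90, 5.91 and 5.81 with GFP and 6.14, 6.27 and 5.98 with SATalpha. The groups did not overlap, and the difference of 0.26 (SE 0.09) missed the threshold (limma adjusted p = 0.0515). It passed without SATalpha replicate 3 (0.33, adjusted p = 0.0119, range among its alternatives 0.0119 to 0.183). Its 6 other probe sets were below the floor and differed by -0.35 to 0.02, so the direction rests on 1 probe set.

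The main chains of type IV collagen, COL4A1 and COL4A2, differed by 0.04 (SE 0.04, 95% interval -0.05 to 0.14) and -0.03 (SE 0.05, 95% interval -0.13 to 0.07). COL4A1 lay at 9.20 to 9.32 with GFP and 9.29 to 9.33 with SATalpha. COL4A2 lay at 9.62 to 9.69 and 9.56 to 9.71. Neither pair of groups was separate, and these intervals keep both genes within 1.2-fold. COL7A1, the anchoring fibril collagen, and COL18A1, a collagen whose end fragment is endostatin, differed by 0.03 and -0.02 and did not pass. The other COL18A1 probe set, also above the floor, differed by 0.15 without overlap (limma adjusted p = 0.226 over probe sets).

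**Figure D3:**
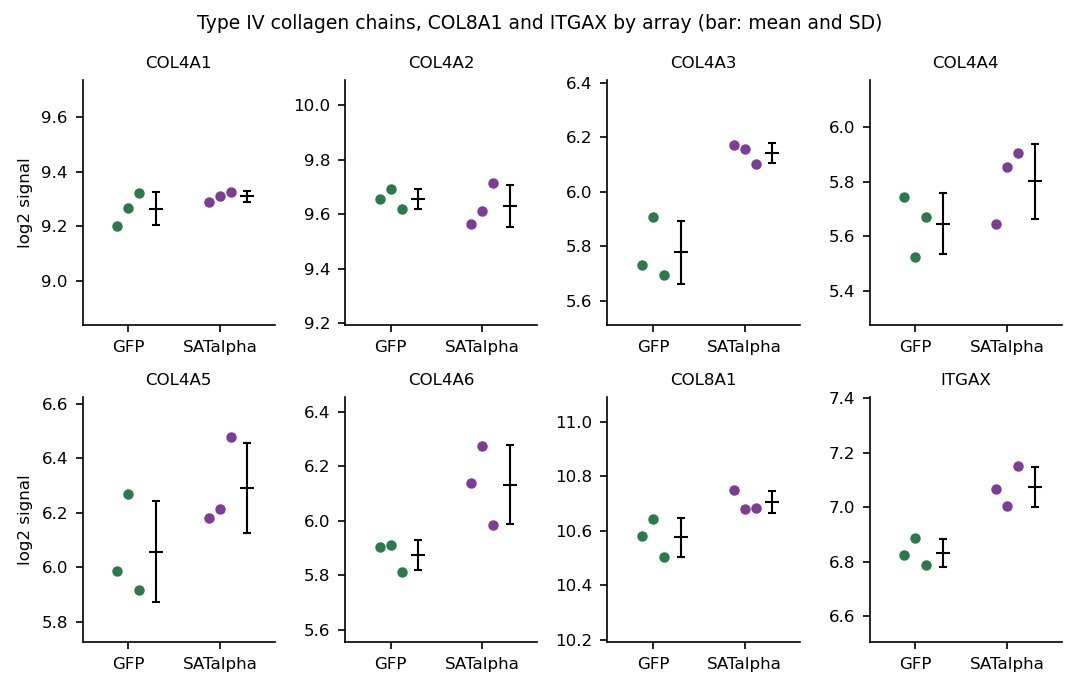
Log2 signal on each of the 3 GFP and 3 SATalpha arrays for the 6 type IV collagen chains, COL8A1 and ITGAX, with mean and SD beside the points; each panel spans 0.9 log2 units. The groups are apart for COL4A3, COL4A6, COL8A1 and ITGAX and overlap for COL4A1, COL4A2, COL4A4 and COL4A5.

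COL8A1, a short chain collagen of sheet-like matrices such as Descemet's membrane, was at 10.58, 10.64 and 10.50 with GFP and at 10.75, 10.68 and 10.68 with SATalpha. The closest values of the groups, 10.64 and 10.68, lay near each other. It rose by 0.13 (SE 0.04, limma adjusted p = 0.0447). The call was lost without GFP replicate 1 or 3 or SATalpha replicate 1 (0.13, 0.09 and 0.11, adjusted p = 0.126, 0.184 and 0.179, range among its alternatives 0.00737 to 0.691). It was also lost without the filter, with quantile normalization, with the replicate number as a block and without the trend. The test without moderation and the mean of its probe sets (0.05) lost it as well. In the fit over all probe sets its brightest probe set did not pass (limma adjusted p = 0.0847). The 2 other COL8A1 probe sets, below the floor, differed by -0.0018 and 0.02.

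Fibril-forming collagens did not pass by limma in any of 4 tested genes, where 0 had an unadjusted p under 0.05 and the test without moderation called 0. COL11A1, a minor fibrillar chain, differed by 0.09 (SE 0.05, limma adjusted p = 0.193), with 6 of its 7 probe sets above 0 and the dimmest at -0.17. COL5A1 and COL5A2, chains of the collagen that starts fibrils, differed by -0.17 (SE 0.09) and 0.04 (SE 0.07), and COL11A2 by 0.0065. The main fibrillar chains COL1A1, COL1A2 and COL3A1 had 16 probe sets, all below the floor, so no difference was tested at gene level, and those probe sets differed by -0.21 to 0.19. COL6A1 and COL6A2, of beaded filaments, differed by -0.04 and 0.06.

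Of the FACIT collagens, which sit on the surface of fibrils, COL9A1 differed by 0.06. COL12A1 differed by -0.03 in its brightest probe set (SE 0.04, limma adjusted p = 0.710). Its other probe set above the floor differed by 0.30. The 2 below the floor, with means of 3.16 and 2.93, differed by 0.35 and 0.38. As the mean of all 4, those below the floor included, the gene rose by 0.25 (adjusted p = 0.0231, range among its alternatives 0.0231 to 0.919). The brightest was at 9.11, 9.04 and 9.09 with GFP and 9.05, 9.09 and 9.02 with SATalpha. The next, with a mean of 6.92, was at 6.77, 6.89 and 6.64 and at 7.21, 6.88 and 7.12. The direction of COL12A1 therefore depended on the probe sets used.

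Laminin chains differed by -0.15 to 0.04. None of 8 tested genes passed by limma, with 1 of them, LAMC1, at an unadjusted p under 0.05, and the median difference was -0.06. LAMC1, the gamma chain shared by most laminins, was at 9.03, 9.05 and 9.02 with GFP and at 8.92, 8.95 and 8.95 with SATalpha. The groups did not overlap and the spread within each was small. Its difference was -0.09 (SE 0.04, limma adjusted p = 0.141), and its other 3 probe sets above the floor differed by -0.16 to -0.08, with a dim probe set at 0.16. The test without moderation, which uses the spread of this gene alone, called it lower (adjusted p = 0.0490, range among its alternatives 0.0490 to 0.405).

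LAMA4, an alpha chain of mesenchymal and vascular basement membranes, was at 7.92, 7.99 and 7.95 with GFP and 7.83, 7.79 and 7.92 with SATalpha. Its difference was -0.11 (SE 0.05, limma adjusted p = 0.180), with its 2 other probe sets above the floor at 0.03 and -0.14. LAMA2, the alpha chain of muscle and nerve, differed by -0.15, and LAMA5, the main alpha chain of mature epithelial basement membranes, by 0.04. The beta chains LAMB1, LAMB2 and LAMB4 differed by -0.02, 0.0034 and 0.0093, and LAMC3 by -0.10. LAMB3, a chain of the laminin under hemidesmosomes, lay below the floor.

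Integrin alpha subunits that bind laminin lay below 0 in the brightest probe sets of all 3 genes, and none passed by limma, where 2 had an unadjusted p under 0.05 and the test without moderation called 0. ITGA6 was at 10.41, 10.36 and 10.43 with GFP and at 10.36, 10.34 and 10.13 with SATalpha, a difference of -0.13 (SE 0.05, limma adjusted p = 0.119). SATalpha replicate 3 was the lowest array. Its 2 other probe sets above the floor differed by -0.03 and 0.12, without overlap in the latter, and the mean of its probe sets by -0.01. ITGA3 was at 10.30, 10.24 and 10.24 with GFP and 10.16, 10.22 and 10.14 with SATalpha, a difference of -0.09 (SE 0.04, adjusted p = 0.133). It passed with array weights (-0.10, adjusted p = 0.0476, range among its alternatives 0.0476 to 0.392). The 2 other ITGA3 probe sets, also above the floor, differed by 0.23 and 0.30 and did not pass. ITGA7 differed by -0.04.

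Subunits that bind the RGD motif of fibronectin and vitronectin went both ways. ITGA5, the fibronectin receptor subunit, was at 7.68, 7.51 and 7.63 with GFP and at 7.71, 7.82 and 7.70 with SATalpha. Its difference was 0.14 (SE 0.06, limma adjusted p = 0.139), and its 3 other probe sets also lay above 0, at 0.09 to 0.47. ITGAV, whose dimer with ITGB5 takes part in the uptake of photoreceptor outer segments, was at 10.07, 9.95 and 10.17 with GFP and 10.00, 9.95 and 9.89 with SATalpha. The difference of -0.11 (SE 0.05, adjusted p = 0.150) passed without GFP replicate 2 (-0.17, adjusted p = 0.0435, range among its alternatives 0.0435 to 0.898). ITGA2, a collagen receptor subunit, differed by 0.15 (SE 0.09), and ITGA4 by -0.04.

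The 4 tested beta subunits differed by -0.03 to 0.07, and none passed, where 0 had an unadjusted p under 0.05 and the test without moderation called 0. ITGB1, the partner of most alpha subunits, was at 12.84, 12.89 and 12.90 with GFP and at 12.97, 12.91 and 12.84 with SATalpha, a difference of 0.03 (SE 0.04, 95% interval -0.05 to 0.11). ITGB5 differed by 0.02 (95% interval -0.08 to 0.12) and ITGB4, of hemidesmosomes, by 0.07. For ITGB8, whose dimer with ITGAV activates latent TGF-beta, the GFP arrays ranged from 6.49 to 7.10 and enclosed the 3 SATalpha values. This brightest ITGB8 probe set differed by -0.03. The 3 others, all below the floor, differed by 0.64, 0.28 and 0.31, and only the first passed in the fit over all probe sets. ITGB3 had 7 probe sets, all below the floor.

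**Figure D4:**
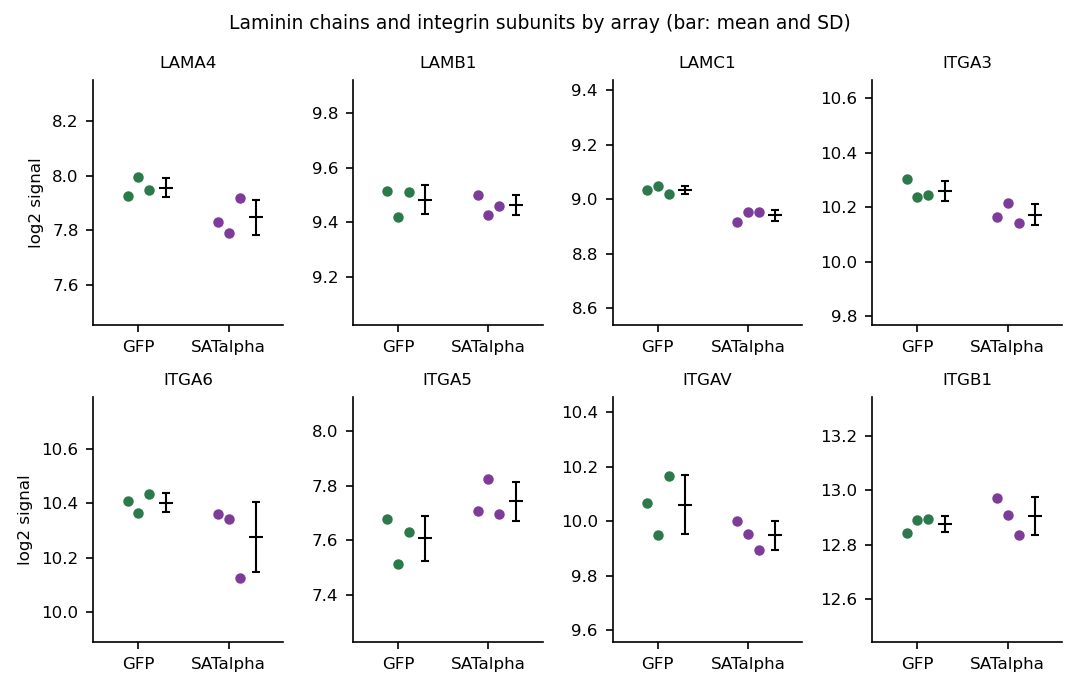
Log2 signal by array for 3 laminin chains and 5 integrin subunits, with mean and SD beside the points; each panel spans 0.9 log2 units. The groups are apart for LAMA4, LAMC1, ITGA3, ITGA6 and ITGA5, and none of the 8 genes passed limma's adjusted p of 0.05.

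Among integrins of leukocytes, ITGAX, the alpha subunit of complement receptor 4 on myeloid cells, was at 6.82, 6.89 and 6.79 with GFP and at 7.07, 7.01 and 7.15 with SATalpha. It rose by 0.24 (SE 0.07, limma adjusted p = 0.0193). The suffix of this probe set marks probes that can also match other transcripts, and the 3 other ITGAX probe sets, below the floor, differed by -0.30, 0.05 and 0.11. The call was lost without GFP replicate 1 or 3 or SATalpha replicate 1 (0.24, 0.22 and 0.25, adjusted p = 0.0732, 0.0651 and 0.0588, range among its alternatives 0.00714 to 0.0756). It was also lost with the replicate number as a block and in the test without moderation. ITGB2, its obligate partner, and ITGAL and ITGAM lay below the floor, and so did the leukocyte marker PTPRC, at 2.51, 2.48 and 2.33 with GFP. Of 9 leukocyte markers 3 lay above the floor and none changed by limma, where 0 had an unadjusted p under 0.05 and the test without moderation called 0. Their summed signal was 8.59 to 8.60 with GFP and 8.56 to 8.57 with SATalpha (log2). ITGAE, also above the floor, differed by -0.03.

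Over all 217 probe sets, fitted with every non-control probe set, 4 passed and all 4 were higher, which is 1.84% against 8.36% of all probe sets, or 4.18% called higher. The groups did not overlap in 38 of the 217, against 26.0% of all, and 131 lay above 0, against 49.9% of all. They were the COL4A3 and ITGAX probe sets above and 1 each of ITGAV and ITGB8 that is not the brightest of its gene. At an unadjusted p under 0.05, 21 were higher and 8 lower. That count was not made over all probe sets, so no lean of the members can be read from it. The ITGAV probe set was at 6.61, 6.59 and 6.56 with GFP and 6.89, 6.74 and 6.95 with SATalpha, a rise of 0.27 (limma adjusted p = 0.0325), against -0.11 for the brightest. The ITGB8 probe set, below the floor, was at 4.30, 4.50 and 3.85 with GFP and 5.0, 4.43 and 5.12 with SATalpha. Its groups overlapped, and the rise was 0.64 (SE 0.18, adjusted p = 0.0419). When arrays were left out in turn, the ITGAV probe set passed only without SATalpha replicate 2 and the ITGB8 probe set only without GFP replicate 2 or SATalpha replicate 2. Without GFP replicate 1 or without SATalpha replicate 1, 0 of the 217 passed, against 3.99% and 4.37% of all probe sets. Without SATalpha replicate 2 or without SATalpha replicate 3, 7 of the 217 passed, against 6.85% and 8.77% of all.

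Of the 38 tested genes, 19 had several probe sets above the floor, and in 11 of these the probe sets differed in sign. With the mean of all probe sets in place of the brightest, 7 of 31 genes changed sign, among them ITGA3 (0.15, adjusted p = 0.128) and COL12A1. COL4A1 also did (-0.12, adjusted p = 0.165), through a probe set below the floor at -0.43, while its 2 probe sets above the floor differed by 0.04 and 0.03. The difference between each other probe set above the floor and the brightest of its gene was therefore tested within arrays, over 12554 probe sets of all genes, a test chosen after the values were seen. By limma 0 of 38 member probe sets passed, against 2.99% of all. Of these 38, 6 had an unadjusted p under 0.05, a count not made over all 12554. The test without moderation called 0 of the 38. The smallest adjusted p were those of ITGAV, where the probe set above rose relative to the brightest by 0.39 (SE 0.09, adjusted p = 0.0713), and of ITGA3. A dimmer ITGA3 probe set stood 0.39 higher relative to the brightest (SE 0.10, adjusted p = 0.0909), and in each case the groups did not overlap.

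**Figure D5:**
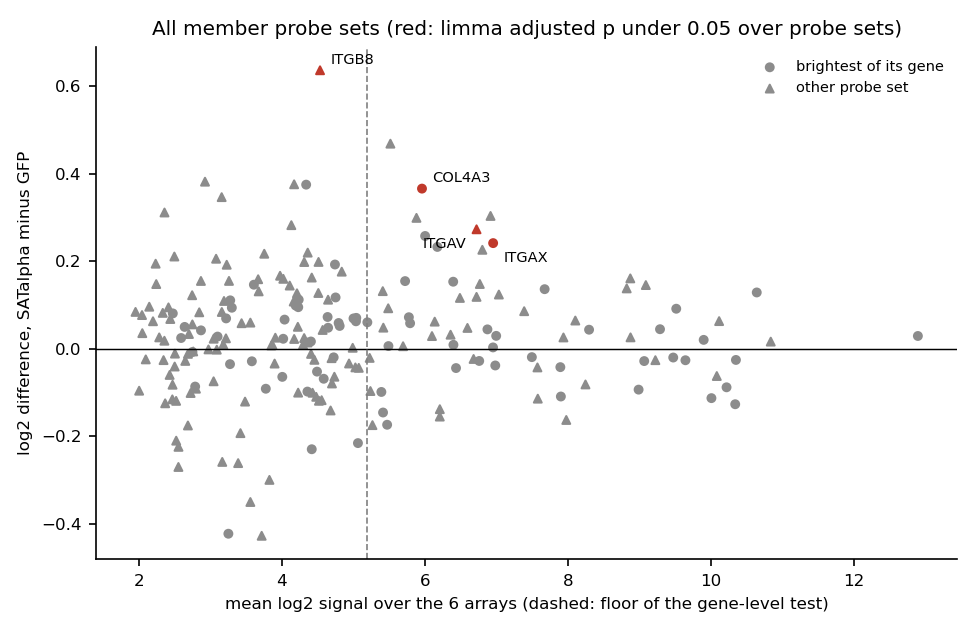
Log2 difference, SATalpha minus GFP, against the mean log2 signal for all 217 member probe sets, with the floor of the gene-level test at 5.19 dashed. The 4 red probe sets passed limma's adjusted p of 0.05 over probe sets, and the spread of differences widens toward low signal.

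The 38 members whose brightest probe set lay below the floor differed by -0.42 to 0.38, and none passed the probe set test. The outermost, chosen after their values were seen, were COL15A1, a basement membrane collagen (-0.42, SE 0.17, limma adjusted p = 0.155), and COL19A1, a FACIT collagen (0.38, SE 0.12, adjusted p = 0.0768).

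Chains that assemble with each other were compared within arrays in 14 pairs, by a two-sided exact permutation test that cannot go below p = 0.1. After adjustment over the pairs the p-values ran from 0.467 to 0.8, so unequal change could not be shown for any pair. Separate groups were seen in 2 pairs. The ITGA3 signal relative to ITGB1 was -2.62 ± 0.07 with GFP and -2.73 ± 0.07 with SATalpha (SD, n = 3, exact permutation p = 0.1), and COL6A1 relative to COL6A2 was 1.24 ± 0.07 and 1.14 ± 0.03 (SD, n = 3, exact permutation p = 0.1). COL4A1 relative to COL4A2 shifted by 0.07 and COL4A5 relative to COL4A6 by -0.03 (exact permutation p = 0.3 and 0.8).

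Genes that build, link and bind these proteins were described by 5 lists. Of 23 tested genes of collagen biosynthesis and crosslinking 2 fell and none rose, with a median of 0.0091. LOXL1, an oxidase that crosslinks elastin and collagen, stood at 10.24 ± 0.04 with GFP and 9.96 ± 0.02 with SATalpha (SD, n = 3) and fell by 0.29 (limma adjusted p = 0.000186). P4HA3, a subunit of prolyl hydroxylase, fell by 0.28 (adjusted p = 0.0334). Of 11 basement membrane partners 2 rose and 2 fell, with a median of -0.02. The proteoglycan AGRN and the laminin-binding NID2 rose by 0.23 and 0.29, while NTN4, a laminin-related netrin, and the fibulin FBLN2 fell by 0.20 and 0.36 (adjusted p = 0.00464, 0.0338, 0.0366 and 0.0410).

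Of 14 other matrix ligands of integrins, 1 rose and none fell, with a median of 0.01. This was CCN1, a matricellular protein, at 11.80 ± 0.06 with GFP and 12.19 ± 0.01 with SATalpha (SD, n = 3), a rise of 0.38 (limma adjusted p = 6.06e-06). In the list of focal adhesion and integrin activation 1 gene rose and 4 fell of 26 tested, with a median of -0.06. The adaptor PXN fell by 0.31 (adjusted p = 0.000518), the actin linker VCL by 0.18 (adjusted p = 0.00447) and the crosslinker ACTN1 by 0.13 (adjusted p = 0.0436). The kinase FYN, named after its values were seen, fell by 0.21 (adjusted p = 0.0499), while CAV1, of caveolae, rose by 0.17 (adjusted p = 0.0206). Of 6 other collagen and laminin receptors 1 rose, the syndecan SDC4 (0.18, adjusted p = 0.00703), and none fell, with a median of -0.05. The test without moderation called 1 gene each of the biosynthesis and ligand lists and 0 of the other 3 lists. Over all tested genes the median was -0.02, and 7.72% were higher and 13.0% lower.

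Markers of other cell types did not pass in any tested gene, by limma or by the test without moderation: 0 of 2 fibroblast, 0 of 3 leukocyte and 0 of 4 endothelial genes, with 0 of each at an unadjusted p under 0.05. The fibroblast genes DCN and LUM lay below the floor, while FAP and PDGFRB lay above it (means of 8.31 and 5.63 with GFP). The summed signal of 8 fibroblast markers was 8.69 to 8.78 with GFP and 8.67 to 8.75 with SATalpha (log2). The summed signal of 8 endothelial markers was 7.919 to 7.978 with GFP and 7.983 to 8.062 with SATalpha (log2), narrowly without overlap. All 4 tested endothelial genes lay above 0, TIE1 by 0.13 without overlap. The part of these sums in the results was not tested.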

How the data were processed

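RNA of 6 ARPE-19 wells was hybridised to 1 expression array each. The deposited values are log2 signals per probe set, already normalized by the authors. MAS5 and RMA appear in the submitters' processing notes; which made these values is not given in the sources used here. The number of arrays limits the precision. Genes were named through the platform annotation: 44988 probe sets had 1 symbol, 1832 several and 2473 none, and only the first were used for genes, while 79 controls were left out.

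Each gene was represented by its brightest probe set over the 6 arrays. Of 18132 genes, the lowest 40% by mean (below a log2 signal of 5.19, the floor) were left out, and 10879 were tested with limma 3.58.1 (R 4.3.3; lmFit, eBayes with trend, two-sided, Benjamini-Hochberg over all tested genes, threshold 0.05). Probe sets were fitted the same way without a filter. A difference is on the log2 scale, SATalpha minus GFP, while a fold is a ratio on the linear scale. Intervals are limma's 95% intervals. Scripts were tested on simulated data. Members, lists and tests were chosen with earlier results of these data known, and the test within genes was added after the values were seen. Named are members that passed without overlap and a list of main chains with some of their probe sets of other sign. Up to 4 genes of each pathway list were named by smallest p. Probe sets of other sign were left out for COL4A2, COL5A1, COL6A1, LAMB1 and ITGB1, among others. Other members named, among them COL4A4, COL4A5, COL4A6, COL11A1 and LAMA2, were named after their values were seen. Alternatives were other filters, scalings, probe set rules, variance models, a replicate block and each array left out.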

Additional observations from a re-analysis of the deposited data

How the results depend on the processing

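Counts of members that passed depended on the settings. Of 38 tested genes 3 changed, all higher. With the replicate number as a block 1 changed and 1 was higher, and 1 of 217 probe sets changed, against 4 without the block. Over all features, 11.9% of tested genes and 4.72% of probe sets were called with the block. The labels do not say whether the numbers pair the arrays. Deviations of same-numbered arrays correlated at -0.01, -0.12 and -0.14, and 0 of 6 arrays correlated best with their own number. No pairing was seen, but deviations within groups of 3 arrays cannot exclude it. Without every probe set of suffix _s_at, _x_at or _a_at, 0 of 21 tested changed, against 9.6% of all tested genes, and 0 were higher. COL4A3, COL8A1 and ITGAX thereby lost the probe set that passed and were not compared, so this says nothing about their calls. With array weights 5 changed and 1 was lower, and 14 probe sets changed, against 11.1% of all probe sets. With the unmoderated test 1 changed, 0 were higher and 1 was lower, and 0 probe sets changed, against 0.655% of all probe sets. Without the mean-variance trend 1 probe set changed, against 2.68% of all. Leaving out each array in turn gave 1 to 5 changed genes (1 to 4 higher, 0 to 1 lower) and 0 to 7 probe sets. Over all features these fits called 11.2% to 23.2% of tested genes and 3.99% to 8.77% of probe sets. COL12A1 reversed with the mean of its 4 probe sets (0.25, adjusted p = 0.0231), of which only 2 lay above the floor. Over all genes, 6.59% (unmoderated) to 30.6% (array weights) were called. The cause of these changes was not tested. Low signal limits the 141 member probe sets below the floor.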
